A study of Arabidopsis thaliana with 18 samples.

Results

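First-pair rosette leaves of Arabidopsis thaliana, cut from seedlings of 15 or 9 days and held in culture for 1 day, are compared here. The members were chosen by their labels alone and are 6 of the 18 RNA-seq libraries of the series, 3 from 15-day and 3 from 9-day explants. All 18 libraries hold polyadenylated RNA of the wild-type accession Col-0, with no transgene or mutant, from seedlings raised at 22°C in constant light on half-strength MS medium with sucrose. The explants were then laid on B5 medium with no sucrose, in the same light and with no hormone named. The other 12 libraries are 3 of 12-day explants after 1 day on that medium, and 9 of untreated leaves from 9-, 12- and 15-day seedlings taken before culture (3 of each age). A detached leaf on such a medium can form roots at its cut base, and the study asked how the 1-day state of the explant differs with the age of the seedling. The design text speaks of biological duplicates where the labels give 3 replicates, and neither says how many leaves were pooled or whether the replicates were separate cultures. Each p-value therefore reflects only how far the 18 libraries, which were fitted together, spread within their groups.

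By way of background, a young Arabidopsis leaf grows first by cell division, which stops from the tip towards the base, and then by cell expansion, while stomata and vascular strands form during and after the division phase. Wounding and detachment bring a burst of jasmonate signalling, then synthesis of auxin in the blade and its transport to the cut, where cells near the vasculature can become root founders. Older leaves have mature chloroplasts, respond more to salicylic acid and abscisic acid, and later enter senescence, in which chlorophyll is degraded and nutrients are exported.

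The 9-day explant libraries held 32264546, 32427054 and 38527757 expected counts in replicates 1 to 3, and the 15-day libraries held 33448002, 34435536 and 49025983. Levels are given as CPM, reads scaled to library size, after TMM scaling, in the order of replicates 1, 2 and 3, and n = 3 per group throughout. CPM is not corrected for gene length, so levels are compared between libraries and never between genes. Within each age, log2 CPM of replicates correlated across genes with r of 0.966 to 0.986 at 9 days and 0.975 to 0.980 at 15 days. The 10 most abundant genes took 8.09% to 9.66% of the counts of the 9-day explants and 4.69% to 5.20% of those of the 15-day explants. Leaf identity was plain in all 6 libraries from RBCS1A, whose level is given with the photosynthesis genes, and transcripts of root hairs and of the shoot meristem were at or near 0. Among the leaves before culture, replicate 2 of 12 and of 15 days stood apart, with correlations to its partners as low as 0.935 and 0.906, and counts that move by over 1.5 times without both are given below. A sample of leaf tissue mixes cell types, so fewer cells of a type and less RNA per cell cannot be told apart in any result that follows.

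Of 20952 genes tested, 2273 were higher (10.8%) and 2749 were lower (13.1%) in 15-day than in 9-day explants at an adjusted p under 0.05, which is 24.0% in either direction. With a change of at least 2-fold in addition, 1340 were higher (6.40%) and 1868 lower (8.92%). The groups did not overlap for 50.6% of the genes tested, 24.7% being higher and 25.8% lower in every 15-day library. The median log2 fold change over all genes tested was 0.00 and the median absolute value 0.46. These shares are the background for the gene lists below, whose counts are of members tested and called in the same fit. The number of calls depended on single libraries: it was 1280 higher and 1730 lower without replicate 1 of the 15-day explants, and the higher calls were 1401 and 1415 without replicate 1 and replicate 2 of the 9-day explants. Replicate 3 of every group has labels with other tags than replicates 1 and 2, and the labels name no batch. Without it, 1488 were higher and 1623 lower. The spread was estimated over all 18 libraries, and other sets of libraries gave more calls. With the 6 explant libraries alone in the fit, 3386 were higher and 3779 lower. Without replicate 2 of the 12- and 15-day leaves before culture, 3395 were higher and 3913 lower.

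**Figure D1:**
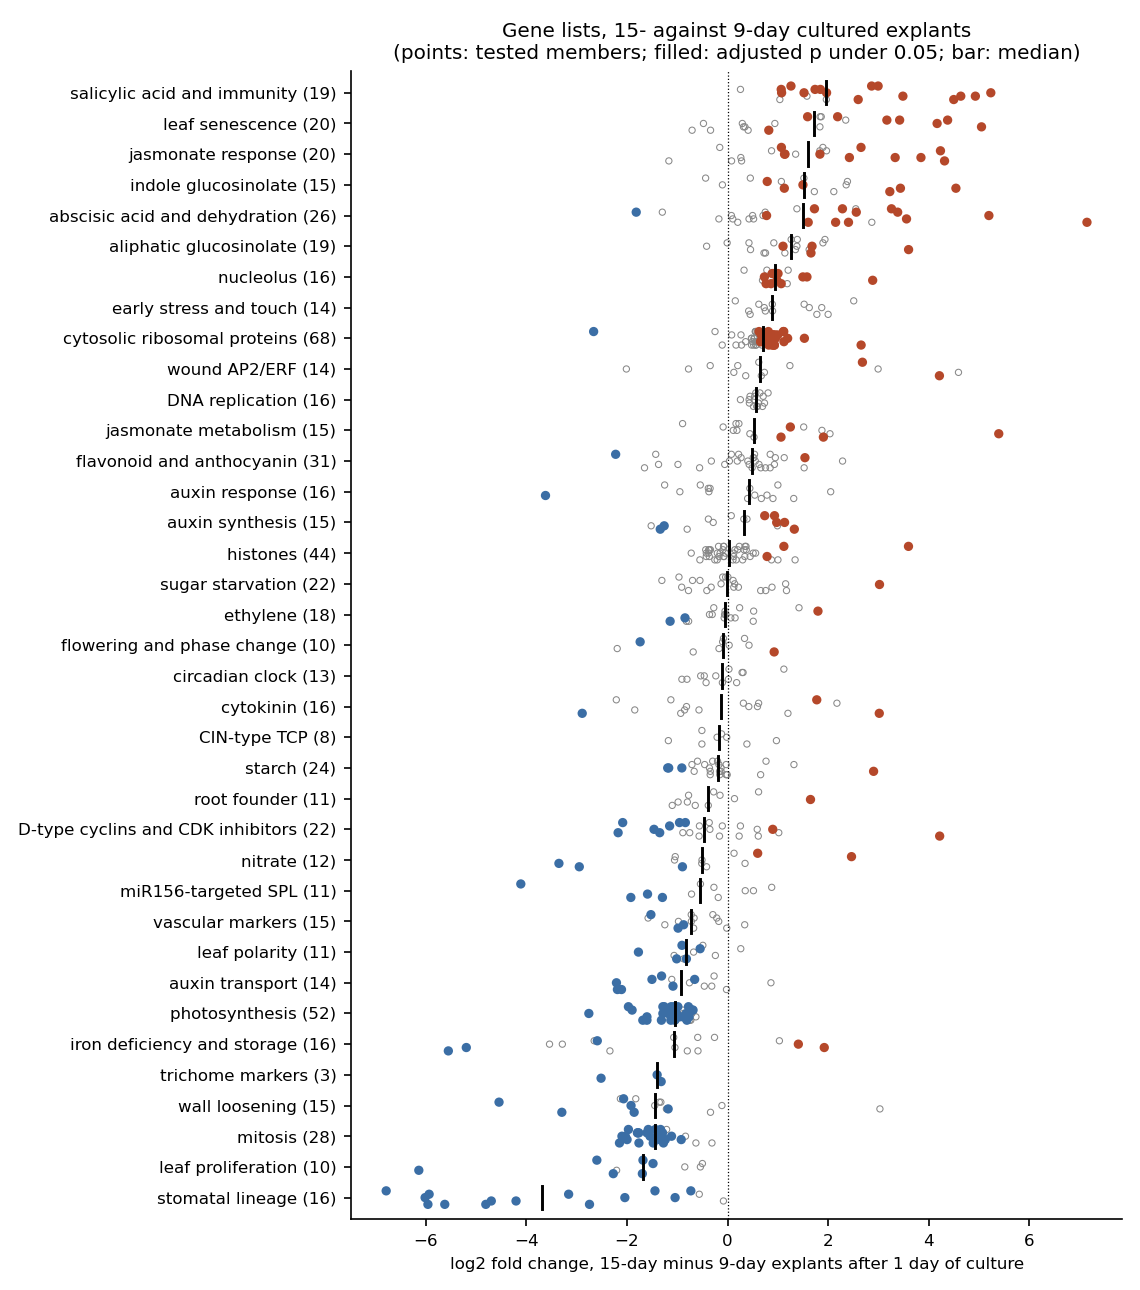
Each point is a tested member of the gene list named on the left (number tested in parentheses), placed by its log2 fold change between 15-day and 9-day cultured explants; filled points (red higher, blue lower) passed an adjusted p of 0.05 and the black bar is the median of the list. Lists of the stomatal lineage, mitosis and photosynthesis lie below 0 with medians of -3.68, -1.45 and -1.05, and the salicylic acid list lies above 0 with a median of 1.96.

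Among the steepest falls with age were those of GER3, PDF1 and AT4G29020. GER3 (AT5G20630, chromosome 5, 6975029 to 6976036 on the minus strand, TAIR10.1 coordinates here and throughout), which encodes a germin-like protein of the cell wall, stood at 258, 292 and 354 CPM in 9-day explants and at 0.660, 0.601 and 0.740 CPM in 15-day explants. Every 9-day library was far above every 15-day library, and the log2 fold change was -8.81 ± 0.82 (SE, adjusted p = 1.4e-05). PDF1 (AT2G42840, chromosome 2, 17826071 to 17827648), a protodermal factor transcribed in the outermost cell layer of young organs, fell from 9.84, 10.8 and 13.6 CPM to 0.0792, 0.0261 and 0.108 CPM, a log2 fold change of -7.19 ± 0.56 (adjusted p = 3.2e-06). The glycine-rich protein gene AT4G29020 fell from 104, 161 and 111 CPM to 0.634, 0.601 and 0.722 CPM. In all of these the 3 libraries of a group lay close together beside the gap between the ages. The other genes among the 10 steepest falls encode a 2-oxoglutarate-dependent oxygenase (AT3G46490), an E6-like protein (AT2G33850), a peroxidase (AT5G58390), a fatty acid desaturase (AT1G06360), a lipid-transfer family protein (AT5G48490), an extensin family protein (AT5G15780) and a GDSL lipase (AT5G45670), as the reference annotates them. AT3G46490 was counted 1243 times in the 9-day explants and 2 times in the 15-day explants, a ratio of 748 with an exact 95% interval of 207 to 6180 that covers counting error only.

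Among the steepest rises were a gene annotated to isoprenoid supply, a lipid transfer protein gene and genes of desiccation. DXPS1 (AT3G21500, chromosome 3, 7573560 to 7576721), annotated as a 1-deoxy-D-xylulose 5-phosphate synthase of the plastid isoprenoid pathway, was at 0, 0.0293 and 0.0720 CPM in 9-day explants and at 82.9, 28.2 and 71.1 CPM in 15-day explants (log2 fold change 10.58 ± 1.55, adjusted p = 0.00036). LTP4 (AT5G59310, chromosome 5, 23924990 to 23925957), a lipid transfer protein, was at 0.268, 0.966 and 0.216 CPM and then at 449, 386 and 61.9 CPM, with replicate 3 the lowest of the older explants and still above every 9-day library (9.28 ± 1.88, adjusted p = 0.0028). DXPS1 averaged 0.0244 CPM in leaves of 15 days before culture and LTP4 0.330 CPM, the levels of the corresponding leaves. AT2G42360, annotated as a RING/U-box protein, had 0 counts in the 9-day explants and 1254 in the 15-day explants, at least 347-fold higher when 3 counts summed over the 3 libraries are taken as the floor. The rises of AT2G42360, LEA7, AT3G17520, AT5G39130 and NADP-ME1 were no longer called without replicate 3 of every group (adjusted p = 0.084, 0.061, 0.054, 0.052 and 0.067), while those of AT3G28510, AT2G35070 and DAA1 were called under every setting tried. LEA7 and AT3G17520 encode late embryogenesis abundant proteins, which accumulate in drying tissue.

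Transcripts of the mitotic machinery were lower in 15-day explants. Of 28 mitosis genes tested, 24 fell and 0 rose, with a median log2 fold change of -1.45. All 28 were lower in every 15-day library than in any 9-day library (background 25.8%). CDC20.1 (AT4G33270), an activator of the anaphase-promoting complex, stood at 10.2, 10.4 and 8.83 CPM in 9-day and at 2.06, 2.19 and 2.58 CPM in 15-day explants (log2 fold change -2.10 ± 0.18, adjusted p = 6.4e-06). CYCB1;1 (AT4G37490), the cyclin of the G2-to-M transition, stood at 2.00, 2.25 and 2.399 CPM and at 0.660, 0.575 and 0.938 CPM (-1.60 ± 0.31, adjusted p = 0.0022). Neither gene had overlapping groups, and the 15-day libraries still had counts of both. CDKB1;2, a mitotic cyclin-dependent kinase, and AUR2, an Aurora kinase, fell with log2 fold changes of -2.15 ± 0.43 (adjusted p = 0.0025) and -2.00 ± 0.39 (adjusted p = 0.0021). Leaving out any 1 library of the comparison left 20 to 23 mitosis genes called, and leaving out replicate 3 of every group left 18.

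Many plant genes of G2 and M phase carry the mitosis-specific activator (MSA) core AACGG, read on either strand as AACGG or CCGTT, which is bound by 3-repeat MYB proteins. In the 250 bases upstream of the annotated gene start, 15 of the 28 mitosis genes hold the core (53.6%), against 21.7% of the 20860 tested genes with such a window. The core also lies in 22 of 44 histone windows and in 6 of 16 nucleolar windows (37.5%). In both lists 0 genes were called lower. The windows below are those of the called members with the most cores, picked for their motifs with their values known. CYCB1;2 (AT5G06150, chr5:1861704-1861953, minus strand), a second B1 cyclin that fell from 8.41, 8.72 and 7.53 CPM to 1.37, 2.22 and 2.67 CPM (-1.97 ± 0.24, adjusted p = 0.00011), holds 4 cores. CYCB1;1 (chr4:17624309-17624558, minus strand) holds 3. Sequences are from RefSeq (TAIR10.1), run 5′ to 3′ on the strand of the gene and end at the base before its start, with the cores in capitals; a match is a description of letters and not a bound site.
CYCB1;2: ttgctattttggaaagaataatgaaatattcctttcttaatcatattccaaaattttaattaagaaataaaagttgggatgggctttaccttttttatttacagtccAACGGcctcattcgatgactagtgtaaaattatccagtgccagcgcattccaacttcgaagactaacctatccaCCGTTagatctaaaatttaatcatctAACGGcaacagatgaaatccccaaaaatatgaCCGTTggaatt
CYCB1;1: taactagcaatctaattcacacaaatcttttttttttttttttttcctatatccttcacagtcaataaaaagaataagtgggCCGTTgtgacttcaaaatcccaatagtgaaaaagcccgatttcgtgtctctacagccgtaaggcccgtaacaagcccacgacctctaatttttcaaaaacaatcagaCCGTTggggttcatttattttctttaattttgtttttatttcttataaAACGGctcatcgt

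Genes of DNA replication were not called. Of the 16 tested, 0 passed in either direction by edgeR's quasi-likelihood test and 0 by DESeq2, with 2 at an unadjusted p under 0.05; their median log2 fold change was 0.57, and 11 of the 16 were higher in every 15-day library than in any 9-day library (background 24.7%). MCM2 (AT1G44900), a subunit of the replicative helicase, stood at 11.6, 7.87 and 11.03 CPM in 9-day and at 15.9, 13.8 and 17.9 CPM in 15-day explants, a log2 fold change of 0.64 ± 0.46 (adjusted p = 0.33). MCM5 of the same helicase stood at 10.8, 10.2 and 10.2 CPM and at 15.9, 15.3 and 13.9 CPM (0.53 ± 0.33, adjusted p = 0.26). Both genes were chosen after their values were seen, and in both the groups did not overlap. With the 6 explant libraries alone in the fit, 7 of the 16 were called higher. The window of MCM2 (chr1:16969964-16970213, plus strand) holds 1 copy of the E2F site TTTCCCGC (GCGGGAAA on the other strand), which lies upstream of 5 of the 16 replication genes and of 0.58% of all windows, and of none of the 28 mitosis genes.
MCM2: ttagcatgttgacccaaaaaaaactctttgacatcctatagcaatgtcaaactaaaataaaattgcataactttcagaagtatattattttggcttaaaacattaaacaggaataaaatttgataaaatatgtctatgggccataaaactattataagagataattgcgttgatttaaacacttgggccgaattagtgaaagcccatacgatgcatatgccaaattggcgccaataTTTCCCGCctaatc

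Histone genes, most of which are transcribed in S phase, had a median log2 fold change of 0.03, with 3 of 44 called higher (0 to 3 when 1 library of the comparison was left out) and 0 lower; near-identical histone copies share reads, so single members are uncertain. Among D-type cyclins, which link growth signals to cell cycle entry, and the inhibitors of cyclin-dependent kinases, 7 of 22 fell and 2 rose. The median log2 fold change was -0.46, with a range from -2.18 to 4.22. These counts pool cyclins with inhibitors, and only cyclins are detailed here. CYCD1;1 fell from 14.3, 12.2 and 14.6 CPM to 2.64, 2.59 and 3.83 CPM (log2 fold change -2.18 ± 0.36, adjusted p = 0.00071). CYCD3;1, the cytokinin-responsive D cyclin, fell from 10.6, 10.4 and 9.81 CPM to 3.70, 4.75 and 5.38 CPM (-1.15 ± 0.28, adjusted p = 0.0077), and CYCD4;1 and CYCD6;1 fell as well (-1.35 ± 0.26 and -2.09 ± 0.36, adjusted p = 0.0020 and 0.0011). CYCD2;1, 1 of the 2 risers of the list, went from 20.5, 16.7 and 16.1 CPM to 36.4, 30.2 and 32.8 CPM (0.90 ± 0.20, adjusted p = 0.0049), a call lost without replicate 3 of every group (adjusted p = 0.067). Without replicate 2 of the 12-day and 15-day leaves before culture, 11 members of the list were called lower.

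**Figure D2:**
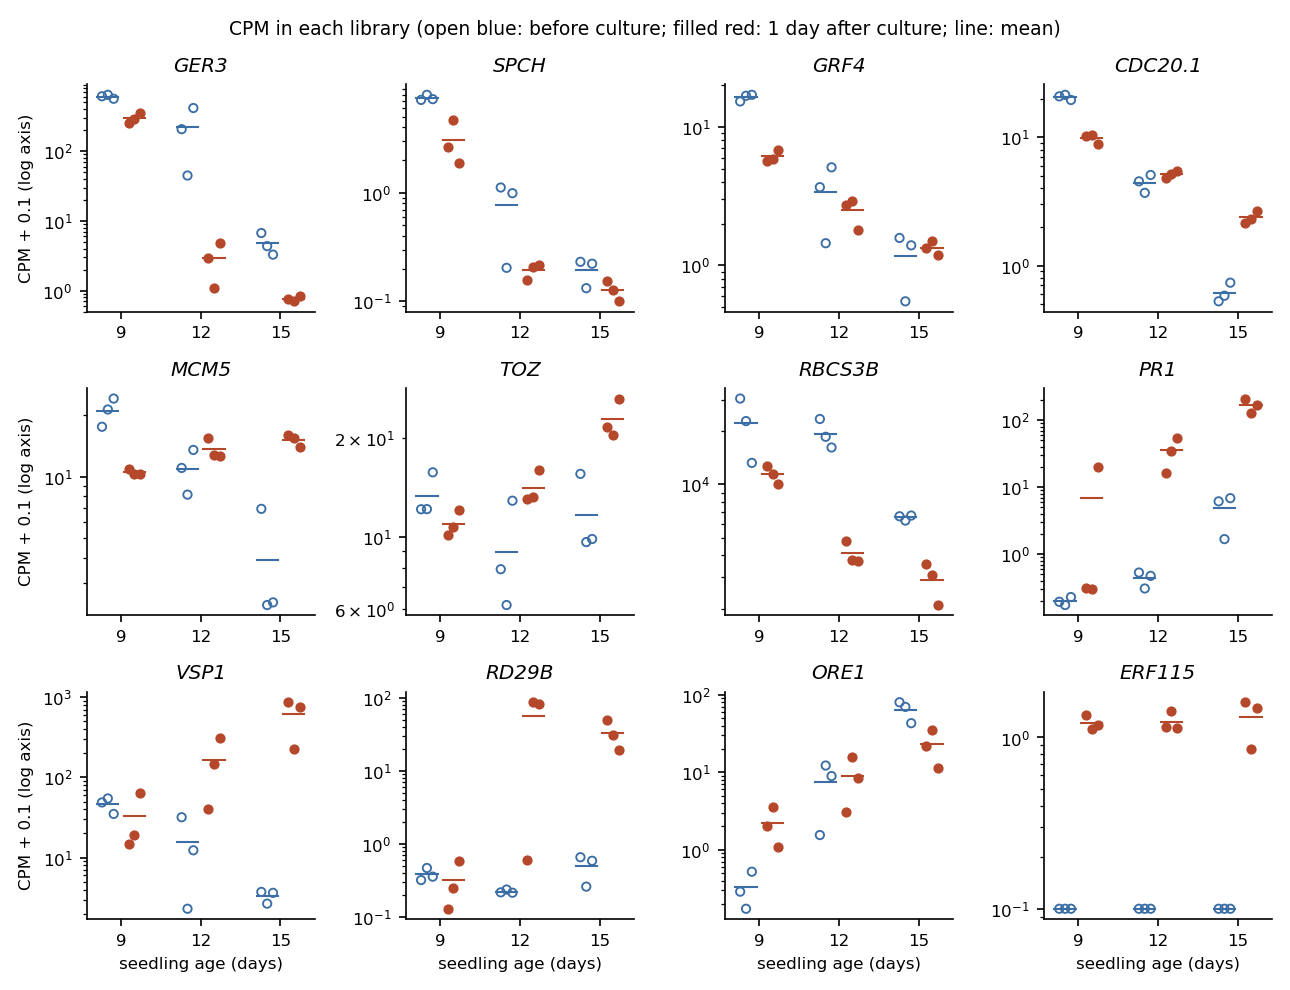
CPM plus 0.1 on a log axis for 12 genes against seedling age in days, with 1 point per library, open blue before culture and filled red 1 day after culture, and a line at the mean of each group. After culture, GER3, SPCH, GRF4, CDC20.1 and RBCS3B run downwards from 9 to 15 days, VSP1, ORE1 and TOZ run upwards, RD29B is highest on average at 12 days, and ERF115 has overlapping groups. MCM5 was named outside the rules after its values were seen. The rules themselves name genes such as GER3 for the size of their change, and the lists were chosen with earlier results known.

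Transcripts of nucleolar and ribosomal protein genes tended to be higher in 15-day explants. Of 16 nucleolar genes tested, 11 rose and 0 fell, and the median log2 fold change was 0.95. All 16 were higher in every 15-day library (background 24.7%). Of 68 cytosolic ribosomal protein genes tested, 34 rose and 1 fell (median 0.70), and 46 were higher in every 15-day library (background 24.7%). TOZ (AT5G16750), a WD-40 protein of pre-ribosomal RNA processing, rose from 9.99, 10.6 and 12.0 CPM to 21.6, 20.3 and 26.3 CPM (log2 fold change 1.07 ± 0.26, adjusted p = 0.0076). The ribosomal protein gene AT2G32220 (L27e family) rose from 9.60, 9.98 and 6.86 CPM to 22.5, 20.6 and 14.4 CPM (1.12 ± 0.24, adjusted p = 0.0043), while AT5G02440, annotated as a 60S L36 protein, fell from 9.96, 10.2 and 6.43 CPM to 1.16, 1.59 and 1.43 CPM (-2.66 ± 0.31, adjusted p = 7e-05). None of these 3 genes had overlapping groups. The number of nucleolar calls was 6 without replicate 1 of the 15-day or replicate 1 or 2 of the 9-day explants, 7 without replicate 2 of the 15-day or replicate 3 of the 9-day explants, and 7 without replicate 3 of every group. The number of ribosomal calls was 16 and 20 without replicates 1 and 2 of the 15-day explants and 20 and 19 without replicates 1 and 3 of the 9-day explants. Reads of ribosomal protein paralogs are shared among copies, so single members are uncertain.

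Plant ribosomal and nucleolar genes are known for pairing a telo box (AAACCCTA, TAGGGTTT on the other strand) with elements called site II near their start, written TGGGCC on one strand and therefore GGCCCA on the other. The telo box lies in the window of 16 of the 68 ribosomal and 3 of the 16 nucleolar genes, against 3.6% of all windows, and site II in 37 and 8 of them, against 16.2%. Site II was also upstream of 10 of the 16 replication genes and 2 of the 28 mitosis genes. The nucleolar NOP5-1 (AT5G27120, chr5:9540611-9540860, plus strand), a core protein of the particles that methylate ribosomal RNA, rose from 23.5, 25.6 and 29.7 CPM to 79.6, 69.2 and 73.7 CPM (1.497 ± 0.42, adjusted p = 0.019). Its call was lost without replicate 1 of the 15-day explants (adjusted p = 0.056), without replicates 1 or 2 of the 9-day explants (0.068 and 0.061) and without replicate 3 of every group (0.051). AT2G37600 (chr2:15775375-15775624, minus strand), of the L36e family, rose from 49.0, 63.5 and 45.5 CPM to 119, 131 and 92.5 CPM (1.12 ± 0.27, adjusted p = 0.0075). Their windows, chosen for holding the most motifs among called members, show both motifs in capitals, and none of the marked motifs overlaps another.
NOP5-1: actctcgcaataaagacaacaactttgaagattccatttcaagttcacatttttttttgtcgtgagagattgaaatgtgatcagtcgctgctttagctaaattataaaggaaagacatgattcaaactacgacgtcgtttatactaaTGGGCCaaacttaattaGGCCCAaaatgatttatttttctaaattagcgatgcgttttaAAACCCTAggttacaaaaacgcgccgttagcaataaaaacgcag
AT2G37600: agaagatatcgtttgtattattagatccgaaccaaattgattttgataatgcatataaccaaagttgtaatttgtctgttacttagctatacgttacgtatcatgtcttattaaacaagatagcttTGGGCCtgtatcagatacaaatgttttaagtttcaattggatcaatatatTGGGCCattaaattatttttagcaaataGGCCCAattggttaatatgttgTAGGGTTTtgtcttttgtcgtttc

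The stomatal lineage was the list with the lowest median among those with 3 or more tested members. Of 16 genes, 14 fell and 0 rose, with a median log2 fold change of -3.68, and 12 to 13 fell when any 1 library of the comparison was left out. SPCH (AT5G53210), the bHLH factor that starts the lineage, had 317 counts in 9-day explants (2.56, 4.59 and 1.77 CPM) and 3 counts in 15-day explants (0.0528, 0.0261 and 0 CPM), a ratio of 127 with an exact 95% interval of 43.1 to 620. MUTE, which ends the divisions of the meristemoid, was at 1.402, 2.58 and 2.16 CPM and at 0.0264, 0 and 0.0541 CPM (log2 fold change -5.96 ± 0.77, adjusted p = 0.00014). The 9-day libraries were higher in every case, and the 15-day libraries were close to no counts. EPF2, the peptide that limits entry into the lineage, and SDD1, a subtilase that limits stomatal density, fell as well (-6.01 ± 0.83 and -5.94 ± 0.89, adjusted p = 0.00023 and 0.0004).

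Regulators of leaf growth followed the same direction. Of 10 leaf proliferation genes tested (growth-regulating factors, GIF1 and ANT), 6 fell and 0 rose (median -1.69). GRF4 fell from 5.58, 5.74 and 6.74 CPM to 1.24, 1.41 and 1.08 CPM (log2 fold change -2.27 ± 0.43, adjusted p = 0.0018), GRF3 from 7.40, 9.37 and 4.46 CPM to 1.08, 1.18 and 1.23 CPM (-2.60 ± 0.43, adjusted p = 0.00072). ANT, an AP2 factor that prolongs cell division in organs, fell from 6.86, 6.79 and 7.29 CPM to 1.56, 1.96 and 2.92 CPM (-1.69 ± 0.28, adjusted p = 0.00073). The groups did not overlap in any of the 3 genes, whereas GRF5 was too rarely counted to test (3 counts at 9 and 1 at 15 days). The YABBY genes FIL and YAB5, which specify the lower leaf side, fell (-1.77 ± 0.30 and -1.01 ± 0.25, adjusted p = 0.00092 and 0.0089). The leaf polarity list they belong to had 5 of 11 lower and 0 higher, and 2 lower without any 1 of the 15-day libraries, without replicate 1 or 2 of the 9-day explants or without replicate 3 of every group; it had 8 lower without replicate 2 of the 12- and 15-day leaves before culture.

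Of the 11 SPL genes that miR156 targets and that mark the change from juvenile to adult leaves, 4 fell and 0 rose (median -0.54). SPL15 fell from 1.55, 1.99 and 1.37 CPM to 0.106, 0.0784 and 0.0902 CPM (log2 fold change -4.11 ± 0.67, adjusted p = 0.00068) and SPL10 from 13.9, 14.9 and 12.6 CPM to 4.46, 5.46 and 6.89 CPM (-1.296 ± 0.28, adjusted p = 0.0040). SPL2 stood at 30.7, 34.5 and 36.9 CPM and at 27.1, 32.3 and 30.2 CPM, with overlapping groups (-0.19 ± 0.34, adjusted p = 0.74). SPL9 was at 7.61, 10.5 and 10.3 CPM and at 2.88, 2.43 and 2.17 CPM (-1.92 ± 0.61, adjusted p = 0.033), and its call was lost without any 1 of the 6 libraries, at adjusted p of 0.050 to 0.096, and without replicate 3 of every group (0.27). The list had 2 lower without replicate 2 of the 9-day explants. Of the 8 CIN-type TCP genes, which end cell division at the leaf margin, edgeR called 0, with 2 at an unadjusted p under 0.05, and DESeq2 called 1 higher and 1 lower. Their lowest value was of TCP4, at 75.1, 71.5 and 52.3 CPM and then 33.4, 28.6 and 25.9 CPM (-1.18 ± 0.41, adjusted p = 0.050). Of 10 flowering and phase change genes, 1 rose and 1 fell: SOC1, the floral integrator, rose from 17.4, 19.3 and 27.3 CPM to 36.7, 43.1 and 41.9 CPM (0.93 ± 0.20, adjusted p = 0.0046), while FUL had a log2 fold change of 0.03 ± 0.29 (adjusted p = 0.95).

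Wall-loosening genes, which act in cell expansion, fell in 6 of 15 and rose in 0. EXPA6, an expansin, fell from 79.2, 67.3 and 54.1 CPM to 15.2, 22.1 and 15.7 CPM (log2 fold change -1.92 ± 0.30, adjusted p = 0.00055). Without replicates 1, 2 and 3 of the 15-day explants in turn, 3, 3 and 2 of the list were lower, and without replicate 3 of every group 1 was; without replicate 2 of the 12- and 15-day leaves before culture 10 were. All 3 trichome genes tested were called lower. The count was 1 to 3 when 1 library of the comparison was left out, and 1 without replicate 3 of every group. GL2, the homeodomain factor of epidermal fate, fell from 12.6, 12.0 and 14.1 CPM to 4.30, 5.25 and 5.90 CPM (-1.32 ± 0.22, adjusted p = 0.00081). Of 15 vascular genes, 3 fell and 0 rose: among them were TMO5 and ATHB8, regulators of procambial cells, with log2 fold changes of -0.98 ± 0.23 and -0.88 ± 0.22 (adjusted p = 0.0065 and 0.0092). The summed level of the 15 vascular genes was 359 to 411 CPM in the 9-day and 261 to 303 CPM in the 15-day explants, and the part of tissue composition in the changes of other lists was not tested.

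Of 52 nuclear photosynthesis genes tested, 34 fell, 0 rose and 18 were not called, with a median log2 fold change of -1.05 and a range from -2.76 to -0.63, and 39 were lower in every 15-day library than in any 9-day library (background 25.8%). RBCS3B, a small subunit of Rubisco, fell from 12685, 11496 and 10098 CPM to 3548, 3098 and 2092 CPM (-1.97 ± 0.28, adjusted p = 0.00031). RBCS1A, another gene of the small subunit, fell from 24108, 22747 and 21652 CPM to 11140, 11247 and 9039 CPM (-1.12 ± 0.23, adjusted p = 0.0033). Neither had overlapping groups, although reads of these paralogs are shared. PSAN, a lumenal subunit of photosystem I, fell from 2096, 2015 and 1417 CPM to 408, 632 and 678 CPM (-1.69 ± 0.31, adjusted p = 0.0017). The number of falling photosynthesis genes was 20 without replicate 1 of the 15-day explants and 21 without replicate 2 of the 9-day explants.

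Genes of salicylic acid and immunity were higher in 15-day explants. Of 19 tested, 15 rose and 0 fell, with a median log2 fold change of 1.96. In this list 18 were higher in every 15-day library (background 24.7%). PR1 (AT2G14610), the marker of salicylic acid signalling, stood at 0.209, 0.205 and 19.8 CPM in 9-day and at 210, 126 and 169 CPM in 15-day explants (4.64 ± 1.21, adjusted p = 0.013). Replicate 3 of the 9-day explants stood far above its partners and still below every 15-day library, and without it the log2 fold change was 9.65. PR2, a beta-1,3-glucanase, was at 5.58, 3.42 and 75.2 CPM and at 1308, 461 and 1406 CPM (5.23 ± 1.05, adjusted p = 0.0026), or 7.88 without that library. WRKY38, a transcription factor of basal defence, showed no such library, with 0.388, 0.527 and 0.672 CPM and then 8.87, 21.2 and 18.7 CPM (4.93 ± 0.72, adjusted p = 0.00033). ALD1, which makes the immune signal pipecolic acid, rose by 4.50 ± 0.89 (adjusted p = 0.0033), or 6.90 without replicate 3 of the 9-day explants. Leaving out 1 library left 11 to 14 of the list called, and leaving out replicate 3 of every group left 7.

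Of 20 jasmonate response genes, 10 rose and 0 fell (median 1.59, 15 higher in every 15-day library), and of 15 genes of jasmonate metabolism 4 rose and 0 fell (median 0.53). Of all genes, 24.0% were called in either direction and 24.7% were higher in every 15-day library. VSP1 (AT5G24780), a vegetative storage protein induced by jasmonate, was at 14.9, 19.1 and 63.8 CPM and at 864, 224 and 753 CPM, with no overlap (4.23 ± 0.92, adjusted p = 0.0045); it shares reads with VSP2. JAZ8, a repressor that jasmonate induces, rose from 0.149, 0.410 and 0.360 CPM to 7.16, 2.27 and 3.97 CPM (3.85 ± 0.63, adjusted p = 0.00071). TAT3, a tyrosine aminotransferase induced by jasmonate, was at 2.42, 1.02 and 77.8 CPM and at 311, 177 and 332 CPM (3.33 ± 1.06, adjusted p = 0.034). Replicate 3 of the 9-day explants was again the high one; without it the log2 fold change of TAT3 was 7.31, while the call was lost without replicates 1 or 3 of the 15-day explants (adjusted p = 0.076 and 0.069) or replicates 1 or 2 of the 9-day explants (0.084 and 0.057). The jasmonate response list had 5 and 6 calls without replicates 1 and 2 of the 15-day explants, 4, 6 and 6 without replicates 1, 2 and 3 of the 9-day explants, and 5 without replicate 3 of every group. The metabolism list had 1 call without replicate 1 of the 15-day explants, 2 without replicate 1 or 2 of the 9-day explants, 1 without replicate 3 of every group and 7 without replicate 2 of the 12- and 15-day leaves before culture.

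Glucosinolates, the sulfur-rich defence compounds of the cabbage family, are made by an aliphatic and an indole branch. In the aliphatic list 4 of 19 rose and 0 fell (median 1.26), which is 21.1% called against 24.0% of all genes. In the indole list, which also holds camalexin genes, 6 of 15 rose and 0 fell (median 1.52, 40% called). MAM3, a chain-elongating synthase of the aliphatic branch, rose from 3.85, 2.87 and 5.42 CPM to 46.8, 57.3 and 43.4 CPM, with the 15-day libraries all well above the others (3.599 ± 0.45, adjusted p = 0.00012). The aliphatic list had 1 call without replicate 1 or 2 of either age and 11 without replicate 2 of the 12- and 15-day leaves before culture. The indole list had 2, 2 and 3 calls without replicate 1 of the 15-day and replicates 1 and 2 of the 9-day explants, and 10 without replicate 2 of those leaves.

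Of 26 genes of abscisic acid and dehydration, 12 rose and 1 fell (median 1.49, 15 higher in every 15-day library, background 24.7%). RD29B (AT5G52300), a dehydration marker with abscisic acid response elements, was at 0.0298, 0.146 and 0.480 CPM and at 49.3, 30.5 and 19.1 CPM (log2 fold change 7.15 ± 1.29, adjusted p = 0.0014). GOLS2, which makes galactinol for raffinose sugars, rose from 0.716, 0.322 and 0.384 CPM to 22.2, 16.6 and 13.4 CPM (5.20 ± 1.01, adjusted p = 0.0023), and RD26, a NAC factor of the abscisic acid response, from 5.25, 4.86 and 8.11 CPM to 57.7, 90.4 and 42.1 CPM (3.38 ± 0.72, adjusted p = 0.0041). In each the groups were well apart. The list had 6 calls without replicate 1 of the 15-day or replicate 1 or 2 of the 9-day explants, and 7 without replicate 3 of every group.

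Of 20 leaf senescence genes, 8 rose and 0 fell (median 1.71, 13 higher in every 15-day library, background 24.7%). ORE1 (AT5G39610), the NAC factor that drives leaf senescence, was at 1.91, 3.48 and 0.984 CPM and at 21.8, 35.0 and 11.3 CPM (log2 fold change 3.42 ± 0.77, adjusted p = 0.0052), with a call lost without replicate 3 of every group (adjusted p = 0.056). NYE2, which takes part in chlorophyll breakdown, rose from 0.268, 0.439 and 0.432 CPM to 9.35, 6.43 and 4.92 CPM (4.17 ± 0.71, adjusted p = 0.00096), and SWEET15, a sucrose exporter of senescing leaves, from 2.80, 2.02 and 0.792 CPM to 87.8, 86.3 and 11.1 CPM (5.05 ± 1.12, adjusted p = 0.0049). SAG13 was at 15.1, 17.5 and 60.2 CPM and at 1153, 342 and 431 CPM (4.38 ± 0.75, adjusted p = 0.00092). SAG12, a protease of late senescence, had 0 counts in all 6 libraries. Without replicate 3 of every group, 5 senescence genes were called higher.

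**Figure D3:**
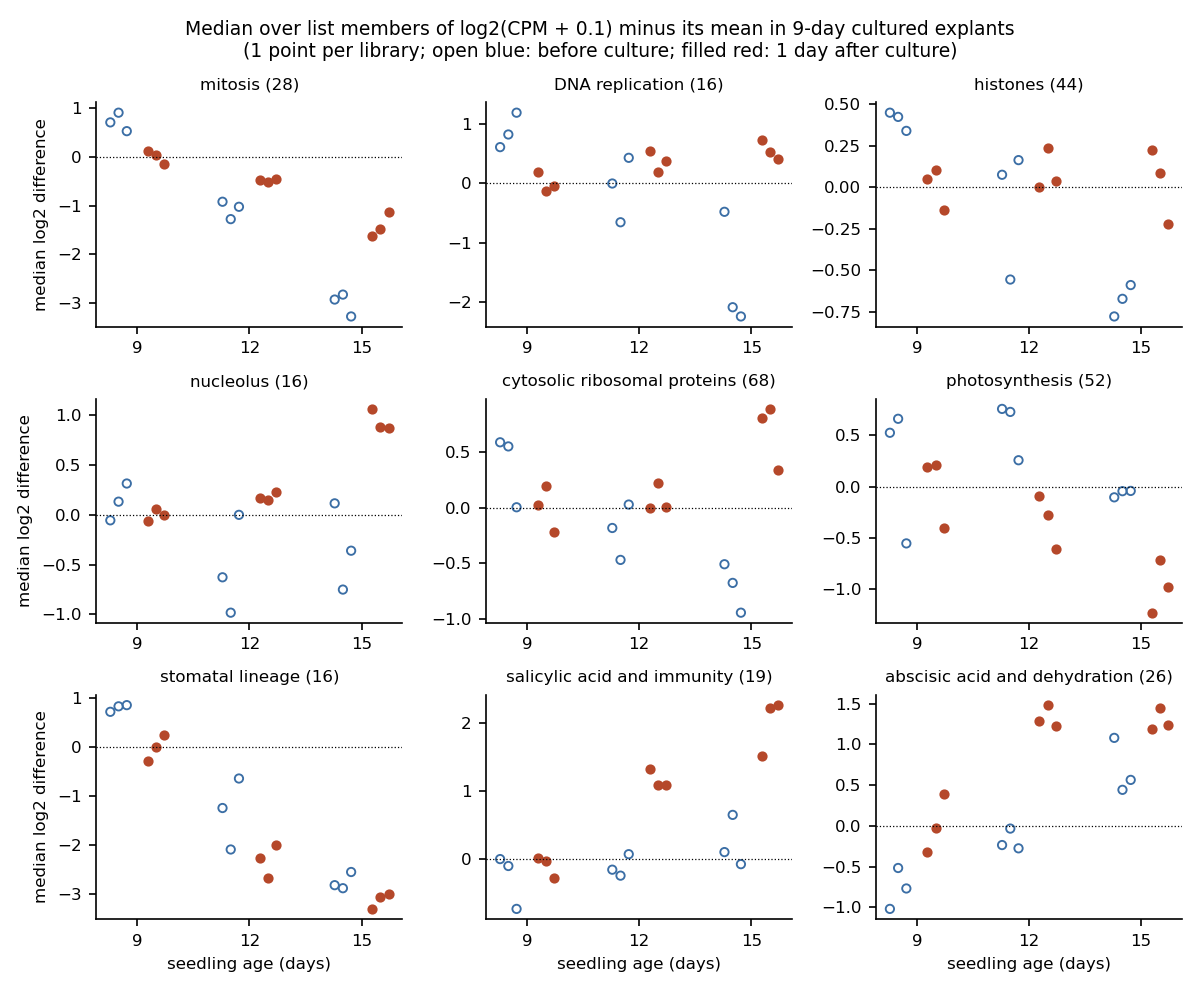
For 9 gene lists, the median over tested members of log2(CPM + 0.1) minus its mean in the 9-day explants, against seedling age in days; each point is 1 library, open blue before culture and filled red 1 day after culture. After culture mitosis, photosynthesis and the stomatal lineage run downwards with age, nucleolus, ribosomal proteins and the salicylic acid list are highest at 15 days, the abscisic acid list is higher at 12 and 15 days than at 9, and before culture mitosis and replication both run downwards.

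Of 14 wound-related AP2/ERF genes tested, 2 rose and 0 fell (median 0.65), and of 11 root founder genes 1 rose and 1 fell (median -0.38). ERF115, which is switched on beside dying cells and in regeneration, was at 1.25, 1.02 and 1.08 CPM in 9-day and at 1.505, 0.757 and 1.39 CPM in 15-day explants (0.12 ± 0.36, adjusted p = 0.84). WIND1, a wound-induced factor of callus formation, was at 93.9, 79.1 and 98.2 CPM and at 96.9, 124 and 128 CPM (0.36 ± 0.33, adjusted p = 0.47). In both the groups overlapped. ERF113 rose from 2.27, 3.51 and 3.98 CPM to 29.98, 17.3 and 15.4 CPM (2.68 ± 0.48, adjusted p = 0.0012). ERF109, which links jasmonate to auxin synthesis, was at 0.537, 0.293 and 0.120 CPM and at 0.370, 1.25 and 21.1 CPM, with replicate 3 far above the other 15-day libraries (4.59 ± 1.62, adjusted p = 0.052).

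WOX11, which marks the first root founder cells of leaf explants, was at 0.567, 0.322 and 0.120 CPM and at 0.0792, 0.340 and 0.0541 CPM (log2 fold change -1.10 ± 0.81, adjusted p = 0.37), and WOX12 had 2 counts at 9 and 6 at 15 days. WOX5, a regulator of the root stem cell niche, had 16 and 2, a ratio of 9 over 15 days of 9.62 with an exact 95% interval of 2.26 to 86.3. That interval covers counting error only. LBD16, a target of auxin response factors in founder cells, was at 1.04, 0.615 and 0.696 CPM and at 1.56, 1.18 and 0.884 CPM (0.62 ± 0.61, adjusted p = 0.51). Neither WOX11 nor LBD16 separated the ages. NAC1, a NAC factor of root formation from explants, was the riser of the list, from 9.22, 6.29 and 3.69 CPM to 16.1, 22.6 and 20.8 CPM (1.63 ± 0.37, adjusted p = 0.0054).

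Of 14 auxin transport genes tested, 7 fell and 0 rose (median -0.92), and 6 to 7 fell without any 1 library. LAX2, an influx carrier, fell from 10.8, 9.92 and 12.4 CPM to 2.03, 2.19 and 3.00 CPM (log2 fold change -2.19 ± 0.19, adjusted p = 6.4e-06), PIN4, an efflux carrier, from 124, 104 and 70.7 CPM to 21.2, 24.8 and 23.2 CPM (-2.11 ± 0.30, adjusted p = 0.0003), and AUX1 from 44.8, 37.6 and 40.2 CPM to 12.7, 13.5 and 17.1 CPM (-1.504 ± 0.26, adjusted p = 0.0011). None of the 3 had overlapping groups. In the list of auxin synthesis, which spans tryptophan and auxin steps, 5 of 15 rose and 2 fell. Only 0 or 1 fell when 1 library of the comparison was left out, and 0 without replicate 3 of every group.

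The risers of that list were tryptophan enzymes. IGPS rose from 63.1, 62.9 and 72.3 CPM to 156, 113 and 122 CPM (log2 fold change 0.98 ± 0.18, adjusted p = 0.0017) and TSA1 from 75.5, 71.4 and 79.5 CPM to 237, 131 and 128 CPM (1.13 ± 0.22, adjusted p = 0.0024). ASA1, the first committed enzyme of tryptophan synthesis, rose from 43.4, 39.5 and 46.5 CPM to 149, 65.6 and 110 CPM (1.33 ± 0.34, adjusted p = 0.012), a call lost without replicate 1 of the 15-day explants (adjusted p = 0.070) and without replicate 3 of every group (0.073). YUC2, a flavin monooxygenase of the last auxin step in leaves, fell from 3.73, 3.69 and 2.35 CPM to 1.03, 1.54 and 1.28 CPM (-1.34 ± 0.40, adjusted p = 0.023), a call lost without replicates 1 or 3 of the 15-day explants (adjusted p = 0.095 and 0.064), replicates 1 or 2 of the 9-day explants (0.071 and 0.072) or replicate 3 of every group (0.083). YUC4 was counted 3 times at 9 days and 17 times at 15 days, a ratio of 4.71 with an exact 95% interval of 1.36 to 25.1. That interval covers counting error only. The synthesis list had 2 higher without replicate 1 of the 15-day explants, 3 without replicate 2 of the 9-day explants and 3 without replicate 3 of every group.

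Of 16 auxin response genes, 0 rose and 1 fell: IAA29, a repressor of auxin response, went from 1.28, 2.22 and 0.696 CPM to 0.185, 0.0784 and 0.0722 CPM (log2 fold change -3.64 ± 0.77, adjusted p = 0.0038). Of 16 cytokinin genes, 2 rose and 1 fell. The risers were CKX5 and CKX4, enzymes that degrade cytokinin: CKX5 went from 1.25, 1.23 and 3.12 CPM to 20.4, 6.06 and 19.1 CPM (3.02 ± 0.56, adjusted p = 0.0016) and CKX4 from 1.16, 0.937 and 1.68 CPM to 3.72, 3.32 and 5.92 CPM (1.77 ± 0.34, adjusted p = 0.0022). ARR5, a response regulator induced by cytokinin, was higher in every 15-day library but missed the threshold (2.17 ± 0.80, adjusted p = 0.059). Of 18 ethylene genes, 1 rose and 2 fell; EIL1, a transcription factor of ethylene signalling, fell from 82.3, 76.1 and 60.2 CPM to 30.7, 36.6 and 31.6 CPM (-1.14 ± 0.21, adjusted p = 0.0015), while its relative EIN3 was at 85.2, 68.0 and 62.0 CPM and at 74.4, 64.5 and 71.6 CPM (-0.03 ± 0.26, adjusted p = 0.95). Of 14 early stress and touch genes, edgeR called 0, with 1 at an unadjusted p under 0.05, and DESeq2 called 1 higher. In this list 7 were higher in every 15-day library (background 24.7%).

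The lists of starch, sugar starvation, flavonoids and the clock had no larger share of calls than all genes (24.0%). The same held for the aliphatic glucosinolate, vascular, wound, root founder, auxin response, cytokinin and ethylene lists. It also held for the lists of early stress, flowering, CIN-type TCP, replication and histone genes. Of 24 starch genes, 2 rose and 3 fell: BAM5, a beta-amylase, rose from 27.9, 41.9 and 30.9 CPM to 290, 226 and 237 CPM (log2 fold change 2.90 ± 0.66, adjusted p = 0.0059; 0.060 without replicate 3 of every group), and APL1, a subunit of the enzyme that makes ADP-glucose, fell from 248, 231 and 219 CPM to 85.9, 109 and 114 CPM (-1.17 ± 0.17, adjusted p = 0.00029). Of 22 sugar starvation genes 1 rose and 0 fell, with a median of -0.02. Of 31 flavonoid and anthocyanin genes 1 rose and 1 fell, with a median of 0.49. Without overlap, 10 were higher and 4 lower at 15 days (background 24.7% and 25.8%). The faller was MYB12, a regulator of flavonol synthesis, from 3.85, 8.31 and 5.25 CPM to 0.924, 0.967 and 1.80 CPM (-2.23 ± 0.48, adjusted p = 0.0044). Of 13 circadian clock genes, edgeR called 0, with 1 at an unadjusted p under 0.05, and DESeq2 called 1 lower.

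Among 16 iron genes 2 rose and 3 fell, which is 31.2% called against 24.0% of all genes. The median log2 fold change was -1.06, with a range from -5.55 to 1.92. Without overlap, 3 were higher and 8 lower at 15 days (background 24.7% and 25.8%). When 1 library of the comparison was left out, 1 to 3 rose and 0 to 3 fell. FER3, a ferritin of the plastid, rose from 31.9, 37.9 and 63.1 CPM to 134, 122 and 96.5 CPM (log2 fold change 1.41 ± 0.32, adjusted p = 0.0061). Of 12 nitrate genes 2 rose and 3 fell. NRT1.5, which loads nitrate into the xylem in roots, rose from 3.61, 1.49 and 3.21 CPM to 19.1, 14.2 and 12.7 CPM (2.46 ± 0.40, adjusted p = 0.00071), whereas the high-affinity transporter NRT2.5 fell from 1.37, 1.76 and 0.288 CPM to 0.0792, 0.157 and 0.0902 CPM (-3.35 ± 0.62, adjusted p = 0.0016). In each of these genes every library of one age lay beyond every library of the other.

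How far these age differences were already present in the leaves before culture was tested per gene as the age difference after culture minus that before culture, over the 12 libraries of 9- and 15-day samples within the fit. The term was higher for 2313 genes (11.0%) and lower for 2048 (9.77%), 20.8% in all. In the leaves before culture, 4858 genes were higher (23.2%) and 4613 lower (22.0%) at 15 than at 9 days, 45.2% in all. The comparisons before and after culture share no library. Of the genes higher after culture, 955 were also higher before, 42.0% of the former and 19.7% of the latter, and of the genes lower after culture, 1646 were also lower before, 59.9% and 35.7%. Opposite calls were made for 293 genes higher after and lower before culture, 12.9% of those higher after, against 22.0% of all genes lower before. They were also made for 134 genes lower after and higher before, 4.87% of those lower after, against 23.2% of all genes higher before. Without replicate 3 of every group, the difference was called higher for 1479 and lower for 799 genes, and the lower calls were 1318, 1356 and 1255 without replicate 1 of the 15-day explants, replicate 1 of the 9-day explants and replicate 2 of the 9-day leaves before culture.

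**Figure D4:**
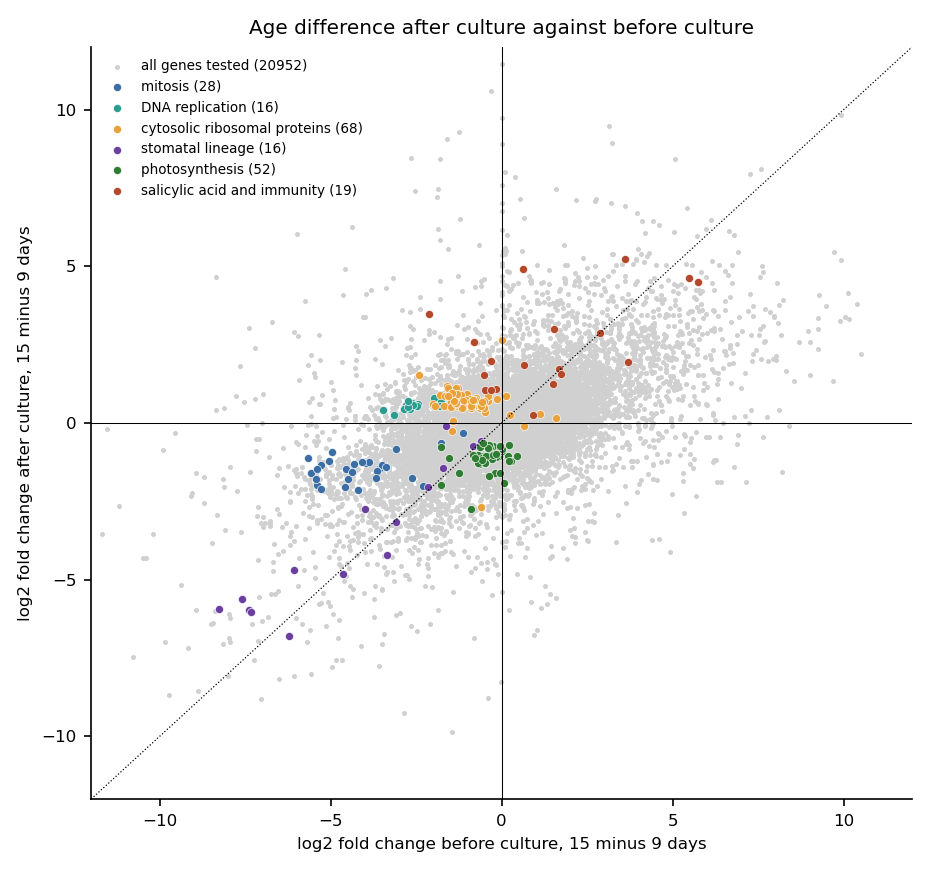
Log2 fold change between 15 and 9 days after culture (vertical) against that before culture (horizontal) for the 20952 genes tested, of which 1 lies outside the axes, with 6 lists in colour and a dotted line of equality. Mitosis and replication genes lie left of 0 and above the line, the stomatal lineage lies along the line at the lower left, and ribosomal proteins are spread across the upper left.

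Genes of mitosis and of DNA replication had a higher age difference after culture than before it. Before culture all 28 mitosis genes and all 16 replication genes were called lower at 15 than at 9 days (medians -4.26 and -2.61), and the difference after minus before was called higher for 23 and 16 of them, with 0 lower. CDC20.1 averaged 20.5 ± 0.97 CPM (SD) at 9 days and 0.515 ± 0.11 CPM at 15 days before culture, and 9.80 ± 0.85 and 2.28 ± 0.27 CPM after it; the difference was 3.19 ± 0.26 on the log2 scale (SE, adjusted p = 2.5e-05). CYCB1;1 averaged 3.46 ± 0.41 and 0.0705 ± 0.025 CPM before culture and 2.22 ± 0.20 and 0.724 ± 0.19 CPM after it (3.97 ± 0.50, adjusted p = 0.00027). In both genes the drop from 9 to 15 days was steeper before culture than after it. MCM5 averaged 20.9 ± 3.3 and 3.81 ± 2.6 CPM before and 10.4 ± 0.38 and 15.0 ± 1.0 CPM after culture (2.99 ± 0.47, adjusted p = 0.00086). Of the replication genes, 9 kept a called difference without replicate 3 of every group.

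For ribosomal proteins, 55 of 68 fell and 2 rose before culture (median -1.14) and the difference was called higher for 60 and lower for 1. AT2G32220 averaged 9.30 ± 1.9 and 3.88 ± 0.82 CPM before and 8.81 ± 1.7 and 19.2 ± 4.2 CPM after culture (difference 2.38 ± 0.35, adjusted p = 0.00055). For the nucleolus the difference was higher in 11 of 16, and in 7 without replicate 1 of either age of explants and 2 without replicate 3 of every group. Histones fell in 29 and rose in 3 of 44 before culture and had a higher difference in 25 and a lower one in 2, and flavonoid genes fell in 23 and rose in 5 of 31 before culture and had a higher difference in 19 and a lower one in 1. For leaf senescence, 15 of 20 rose before culture (median 2.098), and the difference was called lower for 4 and higher for 0; without replicate 3 of every group 1 was lower. ORE1 averaged 0.228 ± 0.18 and 64.1 ± 19 CPM before culture and 2.12 ± 1.3 and 22.7 ± 12 CPM after it (difference -4.55 ± 1.12, adjusted p = 0.011). Ethylene genes rose in 9 of 18 before culture and had a lower difference in 8 and a higher one in 0, with 4 to 9 lower when any 1 of the 12 libraries was left out. EIL1 averaged 114 ± 14 and 132 ± 28 CPM before and 72.9 ± 11 and 33.0 ± 3.1 CPM after culture (difference -1.35 ± 0.29, adjusted p = 0.0055). Genes of sugar starvation rose in 15 of 22 before culture and had a lower difference in 7, with 2 to 10 lower when any 1 of those libraries was left out and 1 without replicate 3 of every group. For photosynthesis, 9 of 52 fell and 0 rose before culture (median -0.32), 17.3% against 22.0% of all genes lower. The difference was lower for 5 and higher for 0, 9.62% against 9.77% of all genes lower. Neither count was above the share over all genes. The difference was lower for 0 and 1 without replicate 1 of the 15-day and 9-day explants. For the stomatal lineage, 14 of 16 fell before culture as well (median -3.67), and the difference was called for 0 of 16 by edgeR and by DESeq2, with 1 at an unadjusted p under 0.05.

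Single genes with a called difference under every setting tried included both signs. VSP1 averaged 46.1 ± 10.07 and 3.25 ± 0.59 CPM at 9 and 15 days before culture and 32.6 ± 27 and 613 ± 342 CPM after it (difference 8.05 ± 1.298, adjusted p = 0.00092), and BAM5 7.99 ± 3.1 and 0.111 ± 0.055 CPM before and 33.6 ± 7.4 and 251 ± 34 CPM after (8.97 ± 1.11, adjusted p = 0.00025). Both had an age order after culture opposite to that before. GRF3 averaged 12.5 ± 2.4 and 16.1 ± 3.5 CPM before culture and 7.08 ± 2.5 and 1.16 ± 0.073 CPM after it (-2.96 ± 0.58, adjusted p = 0.0030), and PIN4 153 ± 25 and 115 ± 33 CPM before and 99.6 ± 27 and 23.1 ± 1.8 CPM after (-1.70 ± 0.41, adjusted p = 0.0099). NAC1 rose with age before culture as well, from 0.874 ± 0.22 to 24.4 ± 6.2 CPM, against 6.40 ± 2.8 and 19.8 ± 3.4 CPM after culture (-3.18 ± 0.53, adjusted p = 0.0012). For PR1 the difference was -0.84 ± 1.83 (adjusted p = 0.78) and turned to 4.16 (adjusted p = 0.016) without replicate 3 of the 9-day explants.

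The 12-day explants are placed beside these values with no overlap of calls, since every comparison with them shares libraries with the one of 15 against 9 days. In 12- against 9-day explants 413 genes were higher (1.97%) and 529 lower (2.52%), and in 15- against 12-day explants 11 were higher (0.0525%) and 30 lower (0.143%), with 2782 genes at an unadjusted p under 0.05 in the latter. GER3 averaged 301 ± 49, 2.85 ± 1.9 and 0.667 ± 0.070 CPM at 9, 12 and 15 days, and SPCH 2.98 ± 1.5, 0.0943 ± 0.033 and 0.0263 ± 0.026 CPM. Of the stomatal genes 11 of 16 were lower at 12 than at 9 days, and 8 of 26 abscisic acid genes were higher; RD29B averaged 0.219 ± 0.23, 56.2 ± 48 and 33.0 ± 15 CPM. CDC20.1 averaged 9.80 ± 0.85, 5.05 ± 0.32 and 2.28 ± 0.27 CPM, and PR1 6.73 ± 11, 35.2 ± 19 and 169 ± 42 CPM. DXPS1 averaged 0.0337 ± 0.036, 1.97 ± 3.1 and 60.7 ± 29 CPM, and TOZ 10.8 ± 1.0, 14.0 ± 1.6 and 22.7 ± 3.2 CPM.

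Marker genes of tissues that a leaf explant should not hold were rare in both groups. Of 7 root tissue genes, 3 (EXPA7, RHD6 and IRT1) had 0 counts in all 6 libraries and the summed level was 0.358 to 0.5997 CPM in 9-day and 0.0180 to 0.0528 CPM in 15-day explants. CASP1, an endodermal protein, had 41 counts at 9 days and 0 at 15 days, at least 16.4-fold lower against the same floor. Of 11 shoot meristem and boundary genes, WUS and LAS had 0 counts, and the summed level was 1.13 to 1.46 CPM in 9-day and 0.613 to 0.784 CPM in 15-day explants; STM was counted 1 and 3 times. KNAT6, the only one tested, fell from 1.01, 1.14 and 0.768 CPM to 0.238, 0.418 and 0.451 CPM (log2 fold change -1.38 ± 0.38, adjusted p = 0.015), a call lost without replicate 1 of the 15-day explants (adjusted p = 0.077), replicate 2 of the 9-day explants (0.060) or replicate 3 of every group (0.068). Of 5 seed storage genes, CRB and OLEO1 had 0 counts and CRA1 had 41 and 1, a ratio of 49.3 with an exact 95% interval of 8.37 to 1995. SESA1, a seed storage albumin, had 2 counts at 9 and 14 at 15 days, a ratio of 15 over 9 days of 5.82 with an interval of 1.34 to 52.8. Both intervals cover counting error only and not the spread between libraries. The summed level of the 5 seed storage genes was 0.149 to 0.648 CPM in 9-day and 0 to 0.238 CPM in 15-day explants. The lowest 15-day library thus had no count of SESA1. The part of such tissues in the results above was not tested.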

How the data were processed

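Each of the 18 files holds RSEM's expected counts per gene for 1 library, which the authors deposited as estimated counts with no further normalization; per the submitters' processing notes, reads were trimmed with Trimmomatic, aligned with STAR 2.5.3 to TAIR10 and quantified with RSEM 1.3.0. The annotation version, strand setting and filters are not given in the sources used here, so reads of overlapping antisense genes cannot be told apart. Expected counts were rounded to whole numbers. Genes passing filterByExpr with a minimum count of 10 were fitted in edgeR 4.0.16 (R 4.3.3, limma 3.58.1) by the quasi-likelihood test with TMM factors, 1 mean for each of 6 groups of 3 libraries, and Benjamini-Hochberg adjustment at 0.05 over all 20952 genes tested; every adjusted p in the text comes from this fit or from a named alternative. The common biological coefficient of variation was 0.340. CPM is on TMM-scaled library sizes, and list medians by library use a pseudocount of 0.1 CPM. Intervals and floors cover counting error only, at 95% (exact Clopper-Pearson) and 3 counts over a group.

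The libraries were chosen by their labels, and the gene lists and the genes in them with earlier results of these data known. The 40 lists hold 778 distinct genes, of which 718 were tested; the ribosomal and histone lists were taken from the reference annotation. The text draws on 168 genes named by rule: the 10 largest changes in each direction among called genes with at least 5 CPM in the higher group and no overlap, up to 4 called members of each list in each direction with the largest change, and 29 chosen whatever their change; genes outside it are named as examples with their values known. Of 37686 loci in the files, 37390 matched the RefSeq annotation of TAIR10.1, and the lengths of 16596 out of 16748 coding genes with 1 transcript were equal to within 0.5 nt, so its coordinates and the 250 bases before each gene start were used. DESeq2 1.42.0, other normalization, filters, sets of libraries, a term for replicate 3 and a replicate block were tried. Python 3.11.15, pandas 2.3.3, scipy 1.17.1 and matplotlib 3.10.9 were used.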

Additional observations from a re-analysis of the deposited data

Results flagged for a closer look

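Of the 120 genes named in the text, 43 had an age difference after culture that differed from the one before culture by the interaction term of the edgeR fit, 25 upward and 18 downward, against 20.8% of all genes tested; as the genes were named for their change after culture, this share is not a test. Values are the log2 fold change of 15 against 9 days after culture minus the same before culture, and 29 of the 50 genes named by rule with such a call lost it under at least 1 setting.

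Among cell cycle genes the term was 3.19 for CDC20.1, 3.97 for CYCB1;1, 3.42 for CYCB1;2, 2.05 for CDKB1;2, 3.27 for MCM2, 2.99 for MCM5, 0.92 for CYCD2;1, 2.14 for CYCD3;1 and 2.37 for CYCD4;1. Among nucleolar and ribosomal genes it was 2.17 for NOP5-1, 1.26 for TOZ, 2.38 for AT2G32220, 2.46 for AT2G37600 and -2.05 for AT5G02440. Among regulators of growth and phase it was -2.96 for GRF3, 1.15 for ANT, -1.03 for YAB5, -1.99 for SPL10 and -1.16 for SOC1. Among genes of root formation, auxin, cytokinin and ethylene it was -3.18 for NAC1, -1.70 for PIN4, -5.78 for IAA29, 0.97 for TSA1, 2.45 for CKX4, 2.74 for CKX5, -1.35 for EIL1 and -1.23 for EIN3. Among genes of defence, dehydration, senescence and lipid transfer it was 8.05 for VSP1, 6.202 for VSP2, 2.75 for JAZ8, 4.31 for WRKY38, -2.58 for MAM3, 6.61 for RD29B, -4.55 for ORE1 and 10.53 for LTP4. Among metabolic and transport genes it was 8.97 for BAM5, -0.74 for APL1, -1.32 for PSAN, 3.17 for FER3 and -2.42 for NRT1.5. Among the steepest falls after culture it was -6.41 for AT3G46490, -8.24 for AT5G58390 and -3.00 for AT5G15780.

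Each group held 3 libraries, too few for the test of a single library standing apart. The loss of TSA1's call without replicate 1 of the 15-day explants (0.61, adjusted p = 0.11) and of MAM3's without replicate 3 of every group (-1.15, adjusted p = 0.27) came with values that moved by over 1.5 times.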

How the results depend on the processing

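The 4 counts of calls kept within 1.5 times their value under DESeq2, RLE factors, both other filters, the term for replicate 3, the fit with the libraries of the comparison alone and the fit without replicate 2 of the 12- and 15-day leaves before culture. Without replicate 2 of those leaves the counts were 3395 and 3913 after culture and 2680 and 2429 for the difference. DESeq2 called 2995 genes higher and 3151 lower in 15-day explants. RLE factors moved the median log2 fold change of all genes by 0.02. Leaving out 1 explant library in turn gave 1280 to 1823 higher (2273 with all) and 1730 to 2156 lower (2749); for the difference from leaves before culture it gave 1627 to 2039 higher (2313) and 1318 to 1739 lower (2048). Leaving out 1 library of the leaves, chosen after seeing the data, gave 1806 to 2433 higher and 1255 to 2456 lower differences. Without replicate 3 of every group the counts were 1488 and 1623 after culture and 1479 and 799 for the difference. Fewer libraries were tested in each of these.

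The labels do not say that a replicate number marks shared material, and the numbers were not taken as pairs. Deviations of same-numbered 9- and 15-day explants correlated at 0.068, 0.343 and 0.332, and those of 15-day leaves and explants at 0.109, 1e-04 and 0.130. Those of 9-day leaves and explants correlated at 0.283, 0.233 and 0.409. Replicate 1 of the 9-day explants correlated best with replicate 2 of the 15-day explants (0.179). For replicate 3 the correlation was positive in every pair of groups, from 0.130 to 0.583 (9- and 12-day explants). For replicates 1 and 2 it had both signs, with lowest values of -0.287 and -0.108. What replicate 3 libraries share was not tested. With the replicate block, 3104 genes were higher and 3592 lower after culture, and 3122 and 3055 for the difference.

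Of 146 genes named by rule and called after culture, 78 kept the call under every setting and 68 lost it under at least 1; 8 of 18 others gained one. For the difference 21 of 50 kept it, 29 lost it, and 33 of 114 others gained one. The sign of the difference turned for PR1 (-0.84 with all), at 4.16 without replicate 3 of the 9-day explants and 4.27 without replicate 3 of every group, its lowest value being -1.425 without replicate 1 of the 9-day explants. It turned for AT1G06360 (-0.08 with all), at 4.22 without replicate 2 of the 12- and 15-day leaves, and ranged from -0.69 without replicate 3 to 4.23 without replicate 2 of the 15-day leaves alone. Neither was called with all libraries, and the cause was not tested. Depth limits genes with a few counts a group, such as WOX12 and YUC4. Leaving out 1 library of the comparison also lowered small counts of calls: to 1 higher for the wound, starch, nitrate and D-type cyclin lists (2 each), to 0 higher for the ethylene, flavonoid and sugar starvation lists (1 each), to 1 lower for ethylene (2), and to 0 lower for the root founder, cytokinin, flowering and shoot meristem lists (1 each).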
